A study of Homo sapiens with 4 samples.

Results

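TRiC, also called CCT, is the chaperonin of the eukaryotic cytosol, and its subunits are encoded by TCP1, CCT2, CCT3, CCT4, CCT5, CCT6A, CCT7 and CCT8. These 8 genes were taken by symbol from the table of a pooled CRISPR interference screen, where each of them had 1 construct out of 20055 constructs against 18541 genes. The screen used K562 (a human leukaemia line) with dCas9-KRAB, a dead Cas9 fused to a repressor that lowers transcription from the promoter a guide directs it to. All cells also carried a mutant form of the large-subunit ribosomal protein uL16 joined to red fluorescent protein (RFP), and no untagged or wild-type reporter line was used here. Cells were transduced with the guide library in 2 separate cultures and selected with puromycin. From each culture the brightest cells (the high bin, about 30% by RFP) and the dimmest cells (the low bin, about 30%) were sorted, which gave 2 high-bin and 2 low-bin libraries of genomic DNA. Their total counts ran from 6053268 to 10825036.

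TRiC is built as a pair of stacked rings, and each ring holds all 8 subunits in a fixed order around a closed folding chamber. ATP binding and hydrolysis shut a built-in lid over the bound protein. Its clients include actin, the tubulins and many β-propeller proteins with WD repeats. Prefoldin hands unfolded chains to it and phosducin-like proteins act as cofactors. The subunits differ in ATP use: CCT2, CCT4 and CCT5 are among the strong ATP binders, whereas CCT3, CCT6A and CCT8 bind ATP weakly. TCP1 and CCT7 were not placed in either group here, and the groups were named with the values below in view. The screen did not measure how far any subunit was lowered, nor the chaperonin itself. A construct that is scarcer among bright cells than among dim cells has a log2 fold change (high bin over low bin) below 0.

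Each construct holds a pair of guides, A and B, designed for the same gene, so the value of a gene is that of the pair and not of either guide. The target sites below show, for CCT7, CCT2, TCP1 and CCT4, where the guides of a pair match the genome. Whether a guide acted at its site was not measured. Sites were read from RefSeq promoter windows of GRCh38.p14, which run from 250 bases before a gene's start to 50 bases after it. Of the 8 genes, 7 had such a window, and CCT6A had none, so its guides were not searched for there. Of the 16 guides, 10 were found in a window of their own gene, for 6 of the 8 genes, each of the 10 followed by the NGG motif (PAM) that Cas9 needs. The capitals mark that motif. The first base of the guide differed from the genome at 6 of the 10 sites. Each line below gives the genomic sequence at the site, not the guide itself. The CCT4 sites are not among the 10, and they too differ from their guides at the first base.
CCT7 guide A: gcggcccggtctcggagaagAGG
CCT7 guide B: tctcggagaagaggggagagTGG
CCT2 guide A: gacggggtctgagccatcagAGG
CCT2 guide B: tcccgagcacgagctgtgagGGG
TCP1 guide A: gcgtacccgagcgatgtcccAGG
TCP1 guide B: tagctcctgggacatcgctcGGG
CCT4 guide A: tccactgggctgcttctataGGG
CCT4 guide B: actgcggccggccagaatccGGG

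The CCT7 sites lie on the plus strand at chr2:73234323-73234345 and chr2:73234332-73234354, just downstream of the gene's start, and overlap each other. The CCT2 sites, at chr12:69585855-69585877 and chr12:69585469-69585491 on the plus strand, lie apart, in the windows of separate annotated starts of CCT2. The TCP1 sites overlap on opposite strands, at chr6:159789573-159789595 and chr6:159789578-159789600. The positions in the authors' guide names put the pair 9 bases apart for CCT7, 12 for CCT5, 17 for TCP1 and 22 for CCT6A, against 204 for CCT3, 261 for CCT8, 288 for CCT4 and 386 for CCT2. Close and distant pairs thus occurred in equal number.

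TCP1, CCT3 and CCT4 have the start of another gene nearby (within 1000 bases), and no such start was listed for CCT2, CCT5, CCT7 or CCT8. The TCP1 sites fell as well in the promoter window of MRPL18, a mitochondrial ribosomal protein gene on the opposite strand. Its start is 210 bases from a TCP1 start at the nearest. The CCT3 site of guide A also fell in the window of TSACC, whose nearest start is 234 bases from a CCT3 start, on the opposite strand. Both CCT4 sites, at chr2:61888243-61888265 and chr2:61888553-61888575, were found in windows of COMMD1, a copper metabolism gene, and not in those of CCT4. They lie at offsets of -148 to -126 and -172 to -150 bases from COMMD1 starts. The nearest COMMD1 and CCT4 starts are 54 bases apart on opposite strands. The CCT4 windows end 50 bases after its starts, so sites farther into CCT4 would not be found in them. The neighbours had constructs of their own. The MRPL18 construct had a log2 fold change, high bin over low bin, of -0.27 ± 0.367 (SE; adjusted p = 0.981), the COMMD1 construct -0.08 ± 0.357 (adjusted p = 0.999), and the TSACC construct 0.77 ± 0.412 (adjusted p = 0.897), all by the quasi-likelihood test of edgeR. None of these neighbours was called, and TSACC stood on the other side of 0 from CCT3. The part of the neighbours in the TRiC values was not tested.

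All 8 TRiC constructs were less frequent in the high bin than in the low bin, in both cultures. Each of the 16 ratios of a high-bin to a low-bin library was below 0 on the log2 scale. Among all 20009 targeting constructs tested, 25.5% were below 0 in both replicates, and among the 663 constructs that the library classes as essential it was 41.3%. The median log2 fold change was -0.98 for TRiC, 0.0 for all targeting constructs and -0.15 for the essential class, to which 7 of the 8 genes belong (CCT5 is in the class named significant). The TRiC medians were -1.06 in replicate 1 and -0.68 in replicate 2. Without high-bin replicate 1 the median was -0.59.

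No TRiC construct passed the threshold, an adjusted p under 0.05 over all constructs, in edgeR or in DESeq2. Over all targeting constructs 0.18% were called toward the low bin and 0.035% toward the high bin, and 0 of 8 lies near that background. At an unadjusted p under 0.05, 5 of the 8 were lower in the high bin and 0 were higher. The background at that cut was 3.36% toward the low bin and 2.59% toward the high bin, and 18.7% of the essential class toward the low bin. The 5 genes were CCT7, CCT2, CCT5, CCT4 and CCT3. The count fell to 3 when high-bin replicate 1, low-bin replicate 1 or low-bin replicate 2 was left out, each in turn. In the same 5 genes both high-bin values lay below both low-bin values, as in 17.5% of all targeting constructs and 35.0% of the essential class. The p-values rest on 2 cultures, and the samples' reads carry no molecular identifiers, so counting error is a lower limit of the error.

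**Figure D1:**
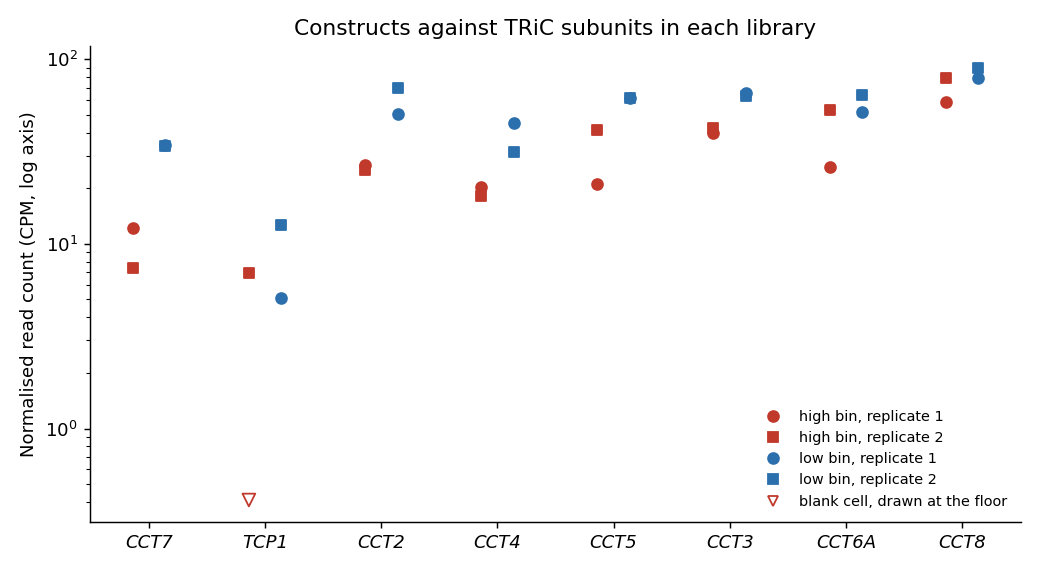
Normalised read counts (CPM, scaled to library size, log axis) of the construct against each TRiC gene in the 4 libraries, high bin in red and low bin in blue, circles for replicate 1 and squares for replicate 2, ordered by log2 fold change. CCT7, CCT2, CCT4, CCT5 and CCT3 show no overlap between the bins, while TCP1, CCT6A and CCT8 do. The open triangle is the blank cell of TCP1, drawn at the floor of 0.41 CPM that 3 counts would give.

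Among the strong ATP binders, CCT2 has also been described as a receptor that directs protein aggregates to autophagy. Its construct stood at 26.8 and 25.1 CPM (read counts relative to library size) in replicates 1 and 2 of the high bin and at 50.4 and 69.8 CPM in those of the low bin. The high-bin values lay close together and well under both low-bin values. The fitted difference was 2.31-fold, a log2 fold change of -1.21 ± 0.355 (SE; unadjusted p = 0.00188, adjusted p = 0.309 in edgeR), and the ratios were -0.90 and -1.46 in replicates 1 and 2.

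CCT4, a subunit that contacts prefoldin, had values of 20.3 and 18.1 CPM in the high bin and of 44.9 and 31.3 CPM in the low bin. Low-bin replicate 2 was the nearer to the high bin, and the bins did not overlap. The log2 fold change was -0.99 ± 0.431 (SE), a 1.99-fold difference, with an adjusted p of 0.811 in edgeR. CCT5, a subunit altered in a hereditary sensory neuropathy, was found at 21.1 and 41.2 CPM among bright cells and at 61.9 and 61.4 CPM among dim cells. Its low-bin libraries were nearly equal, and the spread came from the high bin. The log2 fold change of CCT5 was -0.98 ± 0.357 (SE; adjusted p = 0.658 in edgeR). Leaving out high-bin replicate 1 gave -0.58, and leaving out the other high-bin library gave -1.55.

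TCP1, the subunit after which the ring complex is named, had the fewest reads. Its counts were a blank cell and 75 in the high bin and 34 and 76 in the low bin, or 6.93 CPM in high-bin replicate 2 and 5.11 and 12.6 CPM in the low bin. High-bin replicate 2 lay between the low-bin libraries, so apart from the blank the bins overlapped. With the blank read as 0, the log2 fold change was -1.31 ± 1.04 (SE; adjusted p = 0.937 in edgeR). Leaving out the blank library (high-bin replicate 1) gave -0.35, and leaving out high-bin replicate 2, so that the blank alone stood for the bin, gave -8.88. Leaving out low-bin replicate 1 gave -1.82 and leaving out low-bin replicate 2 gave -0.52. With the blank filled from high-bin replicate 2 it was -0.34, and it was -2.41 when blocked by replicate (adjusted p = 0.644 in edgeR). The size of the TCP1 value therefore depended on the blank cell and on which low-bin library was kept. Its ratio of -4.37 in replicate 1 depends on the prior count of 2 added to each library. Leaving TCP1 out gave a median of -0.98 over the other 7 constructs.

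CCT7 had the largest fitted difference of the 8, although TCP1 passed it with the replicate block, where low-bin replicate 1 was left out and where its blank alone stood for the high bin. The CCT7 construct was at 12.2 and 7.40 CPM in the high bin and at 34.4 and 33.8 CPM in the low bin. Raw counts were 89 and 80 against 229 and 204. The low-bin libraries hardly differed, and both high-bin libraries stood far under them. The log2 fold change was -1.80 ± 0.509 (SE), a 3.49-fold difference, with an unadjusted p of 0.00133 and an adjusted p of 0.264 in edgeR. The adjusted p was 0.0853 with the replicate block and 0.0802 in DESeq2, and it ran from 0.0802 to 0.995 over all alternatives. Of all targeting constructs 0.26% had a log2 fold change as low or lower, and of the essential class 5.28%. None of the 1023 non-targeting constructs did.

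The weak ATP binders, a grouping made with these values in view, had the smallest differences in the fit of all 4 libraries. That order held without low-bin replicate 1, where CCT6A was at -0.68 and CCT4 at -0.70. It did not hold with any other single library left out. CCT3 was at -0.61, CCT5 at -0.58 and TCP1 at -0.35 when high-bin replicate 1 was omitted. With high-bin replicate 2 omitted, CCT6A was at -1.15 and CCT4 at -0.91. With low-bin replicate 2 omitted, CCT3 was at -0.68 and TCP1 at -0.52. TCP1, named like CCT7 in neither group, was at -0.34 with its blank filled from high-bin replicate 2, where CCT3 was at -0.65. A group chosen in this way cannot test a role of ATP binding. CCT3, another subunit that touches prefoldin, measured 40.0 and 42.2 CPM in the high bin and 65.6 and 63.2 CPM in the low bin. Its replicates agreed closely in each bin, and the bins did not overlap. The log2 fold change of CCT3 was -0.65 ± 0.310 (SE), a 1.57-fold difference with an adjusted p of 0.839 in edgeR. In the non-targeting set 59 constructs, or 5.77%, reached as low a value, and in the essential class 27.0% did.

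CCT6A, the broadly expressed form of the sixth subunit, measured 26.0 and 53.1 CPM among bright cells and 51.5 and 63.7 CPM among dim cells. The bins overlapped through high-bin replicate 2, which exceeded low-bin replicate 1. The log2 fold change was -0.54 ± 0.352 (SE; adjusted p = 0.926 in edgeR), with -0.12 when high-bin replicate 1 was left out and -1.15 when high-bin replicate 2 was. CCT8, the subunit with the most reads here, had 58.3 and 79.5 CPM in the high bin and 79.4 and 90.0 CPM in the low bin. Its bins met at their edges, and the difference was about the size of its error. The log2 fold change of CCT8 was -0.30 ± 0.274 (SE, adjusted p = 0.951 in edgeR). Of the non-targeting constructs 21.3%, and of the essential class 42.7%, were as low or lower. The CCT8 value was -0.09 and -0.54 when high-bin replicates 1 and 2 were omitted in turn.

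**Figure D2:**
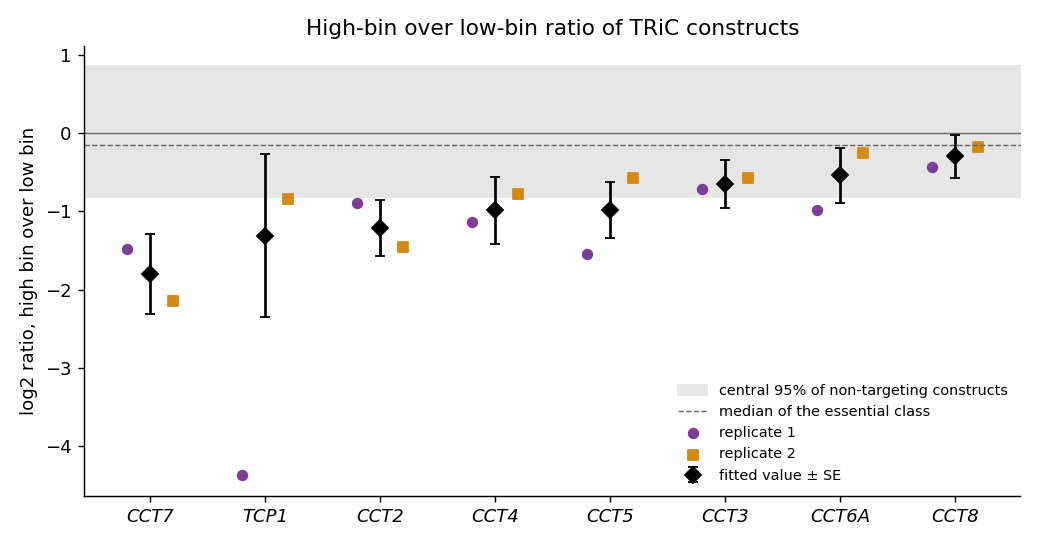
Log2 ratio of the high bin over the low bin for each TRiC gene, with the fitted value and its SE as a diamond, replicate 1 as a circle and replicate 2 as a square. The grey band from -0.82 to 0.85 holds the central 95% of the 1023 non-targeting constructs and the dashed line is the essential-class median of -0.15. The fitted values of CCT7, TCP1, CCT2, CCT4 and CCT5 lie under the band, and those of CCT3, CCT6A and CCT8 lie within it. The central 95% of the essential class, not drawn, ran from -2.29 to 1.44 and holds every fitted value. In that class the share as low or lower was 5.28% for CCT7, 10.3% for TCP1, 11.6% for CCT2 and 17.0% for CCT4 and CCT5. Without high-bin replicate 1, where the TCP1 cell is blank, TCP1 (-0.35) and CCT5 (-0.58) fell inside the grey band drawn. CCT4 (-0.70) did so without low-bin replicate 1, and CCT6A (-1.15) fell under the band without high-bin replicate 2. CCT7 and CCT2 stayed under it with any single library left out.

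The order of the fitted values, from the lowest, was CCT7, TCP1, CCT2, CCT4, CCT5, CCT3, CCT6A and CCT8. Each of the 7 pairs of neighbours in this order differed by less than its combined SE. Of all 28 pairs, 3 differed by more than 2 combined SEs: CCT7 against CCT8 (-1.51, combined SE 0.578), CCT7 against CCT6A (-1.27, combined SE 0.619) and CCT2 against CCT8 (-0.91, combined SE 0.448). These pairs were not tested, and the combined SE takes the constructs as independent although they share libraries. In 6 of the 8 genes the ratio was lower in replicate 1 than in replicate 2. The exceptions were CCT2 and CCT7.

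Abundance in the sorted cells varied more between the subunits than the ratio did. Mean levels over the 4 libraries were 6.15 CPM for TCP1, 21.9 for CCT7, 28.6 for CCT4, 43.1 for CCT2, 46.4 for CCT5, 48.6 for CCT6A, 52.7 for CCT3 and 76.8 for CCT8. The median construct of the essential class stood at 31.6 CPM and the median targeting construct at 42.7 CPM. TCP1 was thus among the rarest constructs, with 0.6% of targeting constructs below it, and CCT8 among the commonest, with 91.7% below it. The starting abundance of the constructs was not analysed here, so loss of cells during growth and a low starting share cannot be told apart. The constructs with the most reads, CCT8, CCT3 and CCT6A, were also those with the smallest differences, and the part of abundance in the ratio was not tested.

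**Figure D3:**
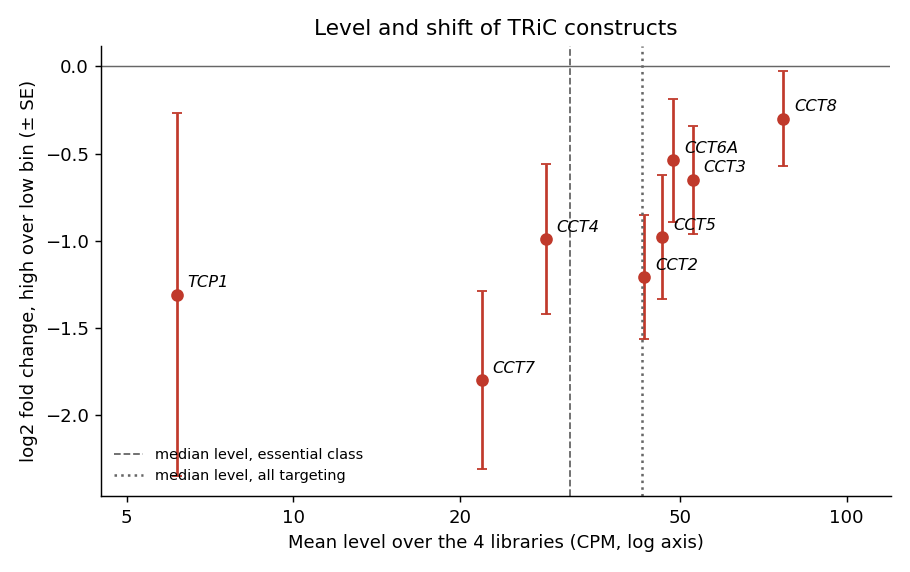
Mean level of each TRiC construct over the 4 libraries (CPM, log axis) against its log2 fold change, high bin over low bin, with bars of 1 SE. TCP1 stands apart at 6.15 CPM with the widest bar, and CCT8 at 76.8 CPM lies nearest to 0; dashed and dotted lines are the medians of the essential class (31.6 CPM) and of all targeting constructs (42.7 CPM).

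The co-chaperones and clients of TRiC were read from the same fit. Of 47 genes listed, 46 were matched in the table, with 48 constructs. None of the 48 was called by edgeR or DESeq2, and 0 had an unadjusted p under 0.05. Their median log2 fold change was 0.02, with 22 below 0 and 26 above, and 25.0% were below 0 in both replicates, close to the 25.5% of all targeting constructs. By list that share was 50.0% for prefoldin (6 constructs), 37.5% for HSP70 and HSP90 chaperones (8 constructs) and 0.0% for other chaperonins (6 constructs). In the remaining lists it lay between 20.0% and 25.0%. Among the partners only the constructs of PFDN2, CDC20 and PLK1 were of the essential class, to which 7 of the 8 TRiC genes belong. In that class 41.3% were below 0 in both replicates. The lists thus differ in class, and no test compared the partners with TRiC.

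Prefoldin, the hexamer that delivers actin and tubulin chains to TRiC, had a median of -0.12 over 6 constructs, of which 4 were below 0. Values ran from -0.67 ± 0.535 (SE; adjusted p = 0.937 in edgeR) for PFDN4 to 0.05 ± 0.430 (adjusted p = 0.999) for VBP1. The 4 constructs against phosducin-like proteins and TXNDC9 had a median of 0.10, from PDCL3 at -0.53 ± 0.357 to TXNDC9 at 0.18 ± 0.544. The lowest value of either list was thus above the TRiC median of -0.98, but the ranges overlapped. PFDN4 was lower than CCT3 (-0.65), CCT6A (-0.54) and CCT8 (-0.30), and PDCL3 was lower than CCT8.

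Other chaperonins and chaperonin-like proteins, with the tissue-specific subunit CCT6B among them, had a median of 0.14 over 6 constructs. The lowest was CCT8L2 (-0.04 ± 0.352, SE), a relative of CCT8, and the highest was BBS10 (0.32 ± 0.307), a chaperonin-like protein of the Bardet-Biedl group. CCT6B, the testis form of the sixth subunit, had 0.13 ± 0.352, and HSPD1, the mitochondrial chaperonin, had 0.27 ± 0.361. Unlike CCT6A, CCT6B had a fitted value above 0, but the difference between them was not tested. No construct of this list was below 0 in both replicates.

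The list of HSP70 and HSP90 chaperones, their co-chaperones and the heat shock transcription factor HSF1 had a median of -0.28 over 8 constructs, 6 of them below 0. It ran from CDC37 (-0.55 ± 0.367, SE), which brings kinases to HSP90, to HSP90AA1 (0.53 ± 0.295), the stress-inducible HSP90. Actin and tubulin genes, the classic clients, had a median of 0.05 over 10 constructs. Both extremes belonged to TUBB, a β-tubulin gene: -0.91 ± 0.537 for its P1 construct and 0.61 ± 0.364 for its P2 construct. The other reported clients had a median of 0.02 over 14 constructs. Their extremes were RPTOR (-0.82 ± 0.461), a subunit of mTORC1, and PLK1 (1.05 ± 1.13), a mitotic kinase whose counts did not exceed 49 in any library.

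**Figure D4:**
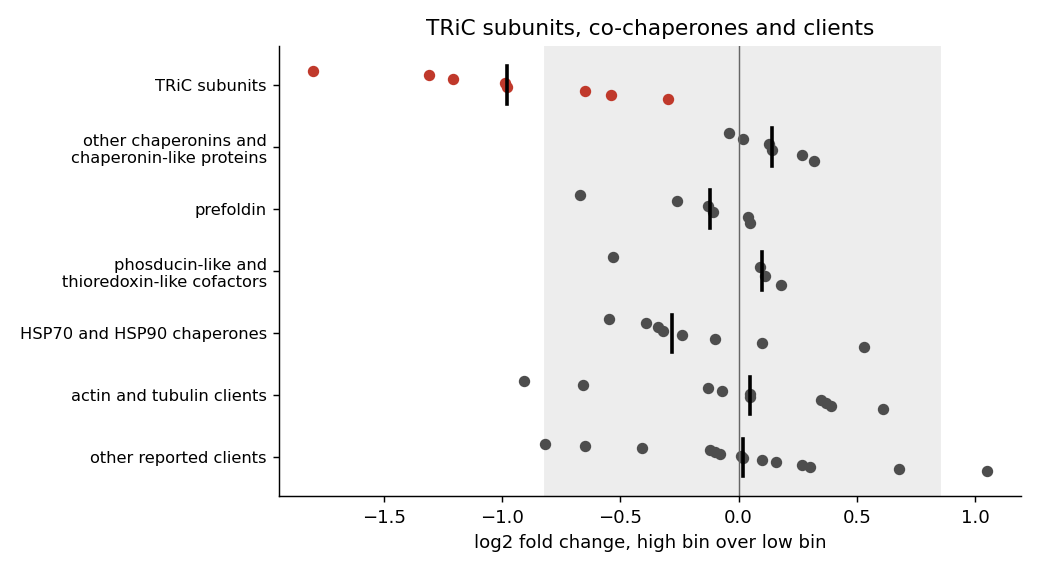
Log2 fold change, high bin over low bin, of each construct in the TRiC list (red) and in 6 lists of co-chaperones, related chaperonins and clients (grey points), with black bars for list medians and the grey band for the central 95% of non-targeting constructs (-0.82 to 0.85). TRiC has its median at -0.98, and the medians of the other lists lie between -0.28 and 0.14. The essential class, which holds 7 of the 8 TRiC genes but few of the partners, has its median at -0.15.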

How the data were processed

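The authors deposited raw read counts per dual-guide construct in 1 table with replicates kept apart, per the file headers. MAGeCK 0.5.9.2 and hg38 appear in the submitters' processing notes without a stated role, and the sources used here do not say how reads were assigned to constructs. A blank cell was read as 0. Constructs with 10 or more counts in at least 2 libraries were tested, and all 8 TRiC constructs were kept. The bins were compared in edgeR 4.0.16 under R 4.3.3 by its quasi-likelihood test, with TMM factors and no covariate, adjusted by Benjamini-Hochberg over 21032 constructs, after a check on simulated counts. The SE is the log2 fold change over the root of F, CPM values are TMM-scaled, and a prior count of 2 enters the ratios of single replicates. The coefficient of variation between replicates beyond counting error was 26.6%. DESeq2 1.42.0 was an alternative.

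Same-numbered libraries come from the same culture, as the series text is read here, but their deviations correlated at only r = 0.0243 across constructs, so the unblocked fit was kept. Members and partner lists were chosen with earlier results of these data known. The text names all TRiC genes, the extremes of each partner list, any partner with an unadjusted p under 0.05, and the 3 constructs nearest to the TRiC construct with the smallest p. CCT6B, HSPD1 and the genes with neighbouring starts lie outside that rule. HSPE1 was not matched and is not used here. Starts within 1000 bases were counted as neighbours.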

Additional observations from a re-analysis of the deposited data

How the results depend on the processing

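All 102 values of single TRiC genes from 13 alternative settings were below 0, and none passed the threshold (lowest adjusted p 0.0644, for TCP1 where the blank alone stood for the high bin). TCP1 has no value where constructs with a blank, or with a mean count under 100, were left out. All settings refit the same libraries or a part of them, so the 102 values are not independent of each other. The TRiC median ran from -1.16 to -0.59 with a library left out, and the number of TRiC genes at an unadjusted p under 0.05 from 3 to 5; where a bin kept 1 library, that library was assumed to vary like the others. With the replicate block the median was -1.01, and 0 TRiC genes were called. Over all targeting constructs, calls toward the high and low bin numbered 7 and 36, against 21 and 69 with the replicate block and 18 and 57 in DESeq2. With a library left out they ran from 3 to 7 and from 6 to 72. No partner list gained a call in any setting. Depth limits TCP1 most, with at most 76 counts in a library.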

Other observations

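The constructs most like CCT7, the TRiC construct with the smallest p, were sought by the Euclidean distance of log2 CPM, centred on each construct's mean, over the 4 libraries. The nearest were those of WDR43, a β-propeller protein of the small-subunit processome (distance 0.194), RPS14 (0.243) and RPS16 (0.289), which are proteins of the small ribosomal subunit. Their log2 fold changes, high bin over low bin, were -1.59 ± 0.287, -1.61 ± 0.385 and -1.57 ± 0.845 (SE), against -1.80 ± 0.509 for CCT7. WDR43 was called (adjusted p = 0.00438 in edgeR), whereas RPS14 and RPS16 were not (adjusted p = 0.0868 and 0.902). WDR43 had 49.2 and 29.9 CPM in the high bin and 122 and 115 CPM in the low bin. RPS16 had only 30 and 27 counts in the high bin and 64 and 60 in the low bin. With 4 libraries such a likeness describes these libraries only.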
